A study of Mus musculus with 6 samples.

Results

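A set of 10 genes for secreted matrix proteins was read in sham-operated mouse sciatic nerve: Fn1 (fibronectin), Tnc and Tnxb (tenascin-C and tenascin-X), Postn (periostin), Vcan (versican), Sparc, Sparcl1 (SPARC-like 1), Thbs1 and Thbs2 (thrombospondin-1 and -2) and Smoc2 (SPARC-related modular calcium-binding protein 2). These 10 genes of the 54309 in the files were chosen by their symbols, and they hold 65 of the 140789 transcripts quantified. The values of all transcripts carrying each symbol were summed, and the share of each transcript in its gene was computed to read the splice forms.

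Fibronectin is a dimeric glycoprotein that cells assemble into fibrils through integrins, and its pre-mRNA is spliced at the EDB, EDA and V regions. The form that the liver secretes into plasma lacks EDB and EDA, whereas cells within tissues make forms that can carry them. Tenascins, periostin, SPARC family proteins and thrombospondins are called matricellular, since they adjust how cells bind the matrix more than they bear load. Versican is a large chondroitin sulfate proteoglycan that binds hyaluronan. In peripheral nerve these proteins lie in the connective tissue sheaths and around Schwann cells, and several of them are known to accumulate after nerve injury.

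Both groups were C57BL/6J mice aged 6 to 8 weeks, 1 group female and 1 male, with 6 mice in each. In every animal the left sciatic nerve was exposed at mid-thigh and left uncut, and the nerve was taken 24 h later, which the labels call whole and the study's methods describe as proximal segments. Each sample was a pool of 2 mice, so there were 3 female pools (F1 to F3) and 3 male pools (M1 to M3) of separate animals. No unoperated nerve was included, and the values therefore describe nerve a day after surgery in both sexes. RNA was measured by poly-A selected, paired-end RNA-seq, which the authors quantified with Salmon as estimated read pairs and as TPM, a level per transcript length scaled to the same total in every pool.

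The pools held 55949876 to 78473057 estimated read pairs. All 8 markers of myelinating Schwann cells, all 10 of fibroblasts, all 6 of perineurial cells and all 6 of endothelial cells passed the filter on low counts in these nerves. Pool F2 stood apart by its skeletal muscle RNA, with a summed level of 10 fast muscle markers of 3230 TPM against 17.5 to 213 TPM in the other pools. In bulk nerve, fewer cells of a type and less RNA per cell cannot be told apart.

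All but Tnc of the 10 genes lay far above the median of the genes that passed the filter, and Sparc was among the most abundant transcripts of the nerve. On the scale of mean TPM over the 6 pools, Sparc was at 3838 ± 171 TPM (SD, n = 6 pools), the 99.9th percentile of the 16310 genes that passed the filter. Smoc2 followed at 596 ± 39.8 TPM, Fn1 at 484 ± 55.4, Thbs1 at 229 ± 83.3, Postn at 184 ± 36.6 and Sparcl1 at 139 ± 12.2 TPM. Vcan was at 103 ± 11.9 TPM, Thbs2 at 57.4 ± 10.4, Tnxb at 56.5 ± 6.34 and Tnc at 16.9 ± 7.44 TPM. Tenascin-C was thus the only member near the middle of the genes that passed the filter, at percentile 52.9, while the other 9 lay at percentile 82.3 or above. Among all genes with a TPM above 0 Tnc was at percentile 75.5, and with protein-coding transcripts only at 59.5. The estimates rested on 33791 read pairs over all pools for Tnc and on 2053669 for Sparc.

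**Figure D1:**
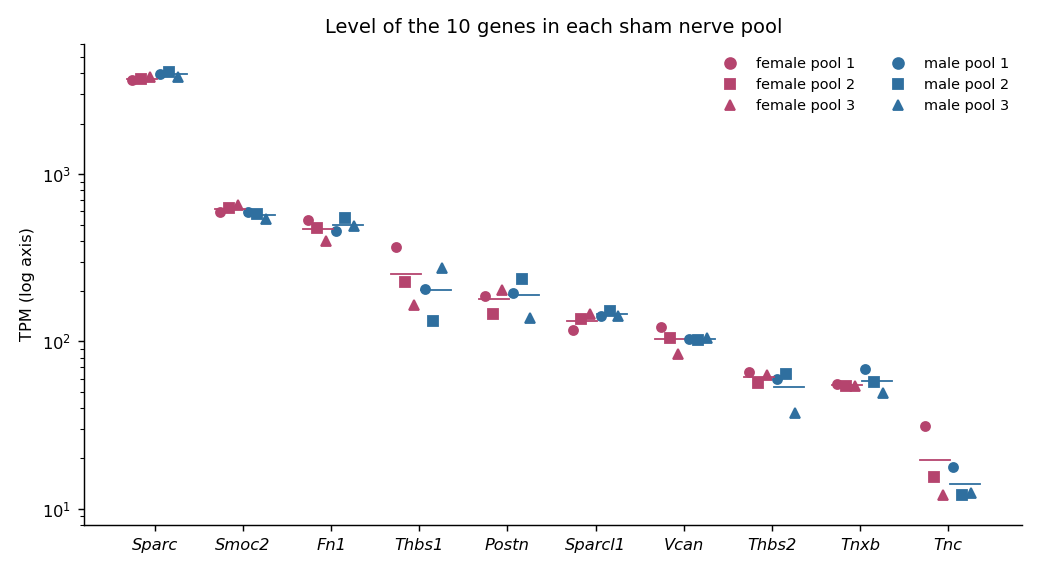
Level of each of the 10 genes in each pool, in TPM on a log axis; points are pools (red, female; blue, male; circle, square and triangle for replicates 1, 2 and 3) and horizontal lines are the means of 3 pools. Sparc sits near 3838 TPM and Tnc near 16.9 TPM, and the female and male points of most genes intermix.

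The order of neighbouring levels was read within pools, from the log2 ratio of their TPM, with an exact sign-flip permutation test (two-sided) adjusted over the 9 neighbour pairs. The pairs, and with them the likely direction of each ratio, were taken from the mean TPM of these same pools. The p-values therefore describe how steady the ratios were among pools and are no separate support for the order. Sparc exceeded Smoc2 6.45-fold in the mean, Smoc2 exceeded Fn1 1.24-fold, Fn1 exceeded Thbs1 2.22-fold, Vcan exceeded Thbs2 1.82-fold and Tnxb exceeded Tnc 3.55-fold. Each of these 5 ratios was above 1 in 6 of 6 pools, with p = 0.03125 in the exact test, the smallest that 6 pools allow, and an adjusted p of 0.05625. Postn lay above Sparcl1 (1.31-fold) and Sparcl1 above Vcan (1.35-fold) in 5 of 6 pools each (adjusted p = 0.0804, exact permutation test). Thbs1 and Postn were not separated beyond their spread (1.20-fold, 4 of 6 pools, adjusted p = 0.527 by the same exact test), nor were Thbs2 and Tnxb (1.01-fold, adjusted p = 0.906). The middle of the order depends on the unit. With CPM (counts scaled to the library total) per kilobase of the longest transcript in place of TPM, Postn fell below Sparcl1 in 6 of 6 pools (mean log2 ratio -0.65), and the ratios of Smoc2 to Fn1 and of Vcan to Thbs2 turned to -0.03 and -0.14 on the log2 scale. In that unit Thbs1 exceeded Postn 2.26-fold in 6 of 6 pools (adjusted p = 0.0469, exact permutation test). With protein-coding transcripts only, Fn1 was at 302 TPM in place of 484, and its lead over Thbs1 shrank to 1.39-fold in 5 of 6 pools (adjusted p = 0.121, exact permutation test).

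Female and male nerves were then compared gene by gene to ask whether these matrix genes differ by sex in nerve that was not cut. None of the 10 genes passed an adjusted p of 0.1 in edgeR's quasi-likelihood test, where 10 of all 16310 genes (0.0613%) did, and none of the 10 had an unadjusted p under 0.05, where 997 of all genes (6.11%) did. DESeq2 also called none of them. The adjusted p of the members ran from 0.831 for Smoc2 to 0.992 for Fn1 in the edgeR fit. The fitted level was higher in females for 5 members and lower for 5. The median log2 fold change of the members was 0.02, against 0.00 over all genes tested, and their median size regardless of sign was 0.12 against 0.08.

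**Figure D2:**
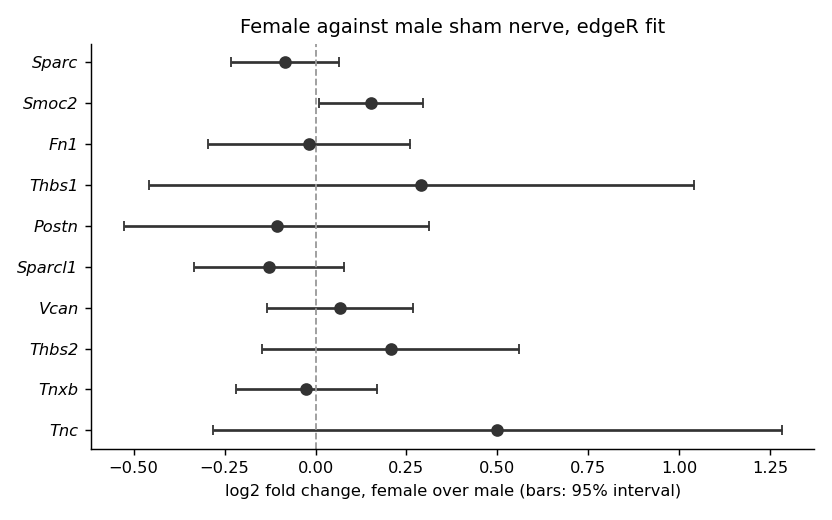
Log2 fold change of each gene, female over male, from the edgeR fit across 16310 genes, with bars for the 95% interval (n = 3 pools per sex). The interval of Smoc2 runs from 0.01 to 0.30, all others cross 0, and the widest are those of Tnc and Thbs1.

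The intervals differ greatly in width. For Sparc the 95% interval of the log2 difference (1.96 SE on either side) ran from -0.23 to 0.06, for Tnxb from -0.22 to 0.17 and for Vcan from -0.13 to 0.27. For Thbs1 it ran from -0.46 to 1.04 and for Tnc from -0.28 to 1.28, so these pools leave room for a difference of more than 1 log2 unit in those genes. The intervals use a normal quantile, so that of Smoc2 leaves out 0 although its unadjusted p in the quasi-likelihood test was above 0.05. The normalized counts of 2 of the 10 genes, Sparc and Smoc2, did not overlap between the sexes, as did those of 11.2% of all genes tested.

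Fibronectin, the fibril-forming ligand of integrin alpha5 beta1, was at 535, 477 and 397 TPM in the female pools and at 456, 550 and 488 TPM in the male pools. The ranges overlapped, F3 being the lowest pool and M2 the highest, and the log2 difference of female over male was -0.02 ± 0.14 (SE; adjusted p = 0.992, edgeR). The Fn1 gene lies at chr1:71624673-71692419 on the minus strand (GRCm39). Its forms are described by 7 full-length coding transcripts: with or without EDA, each with the longest, middle or shortest start of the V region, and Fn1-201, which alone carries EDB beside EDA and the longest V. EDB (chr1:71652922-71653194, 273 bases or 91 codons) and EDA (chr1:71642819-71643088, 270 bases or 90 codons) are each a whole coding exon that encodes a type III repeat. They are shown 5′ to 3′ on the gene's strand, exon in capitals and 10 intron bases on either side in lower case, since their use sets the difference between the tissue and plasma kinds of fibronectin.
EDB: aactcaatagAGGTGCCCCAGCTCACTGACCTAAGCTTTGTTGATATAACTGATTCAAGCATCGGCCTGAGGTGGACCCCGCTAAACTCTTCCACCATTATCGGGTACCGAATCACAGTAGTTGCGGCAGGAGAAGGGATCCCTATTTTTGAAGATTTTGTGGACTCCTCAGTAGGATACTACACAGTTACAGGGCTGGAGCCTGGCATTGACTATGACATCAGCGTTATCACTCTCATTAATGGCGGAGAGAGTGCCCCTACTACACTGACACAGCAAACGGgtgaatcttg
EDA: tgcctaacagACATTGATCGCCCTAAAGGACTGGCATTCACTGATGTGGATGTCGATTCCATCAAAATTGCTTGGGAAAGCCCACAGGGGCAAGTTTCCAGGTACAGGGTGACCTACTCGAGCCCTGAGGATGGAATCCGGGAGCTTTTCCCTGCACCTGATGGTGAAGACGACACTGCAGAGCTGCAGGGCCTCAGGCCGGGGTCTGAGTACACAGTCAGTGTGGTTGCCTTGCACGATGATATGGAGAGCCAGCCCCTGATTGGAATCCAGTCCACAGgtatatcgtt

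EDA was used in a minority of Fn1 transcripts and EDB in few. Percent inclusion was taken as the TPM of transcripts that hold the exon over that of all transcripts spanning its position. For EDA it was 33.2, 31.6 and 25.3% in the female and 27.1, 28.5 and 26.8% in the male pools, and for EDB 6.65, 4.90 and 4.76% and 5.54, 6.12 and 6.07%. EDA lay 23.1 ± 2.82 percentage points above EDB (SD, n = 6 pools). This is given with no test, since Fn1-201, the only transcript model with EDB, also carries EDA, which all but fixes the sign. Neither exon differed by sex beyond the spread, with a female minus male difference of 2.57 points for EDA and -0.47 for EDB (p = 0.4 for each, exact permutation test, where 3 pools against 3 cannot go below 0.1).

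The size of the EDA estimate depends on Fn1-202, a 4022-base transcript annotated as retaining an intron, which covers the later exons of the gene and skips EDA. It had the highest level of any Fn1 transcript, at 105, 100 and 120 TPM in the female pools against 90.0, 133 and 199 TPM in the male pools. Pool M3 stood out, with a Fn1-202 level 0.844 times that of the full-length coding transcripts, against 0.540 in F3 and 0.289 to 0.378 in the other 4 pools. Among protein-coding transcripts only, EDA inclusion was 41.1%, from 34.9% in M1 to 49.5% in M3, and the female and male means were 41.1 and 41.2%. Fn1-202 is not among the transcripts that span EDB, and the EDB value hardly moved, at 5.87%. EDA minus EDB was then 35.3 points.

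The V region begins at 1 of 3 acceptor sites within the same exon, which ends at chr1:71636440. Its longest form carries a binding segment for integrin alpha4 beta1. The longest form starts at position 71636906, the middle form at 71636831 and the shortest at 71636546, and the longest and middle forms add 360 and 285 bases (120 and 95 codons) to the shortest. The 3 sites are shown with 30 intronic or skipped bases in lower case and the first 30 bases of the exon in capitals, because they read the same donor and differ only here.
longest V: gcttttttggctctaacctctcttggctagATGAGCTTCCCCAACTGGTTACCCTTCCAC
middle V: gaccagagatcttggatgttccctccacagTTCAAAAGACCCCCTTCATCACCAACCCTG
shortest V: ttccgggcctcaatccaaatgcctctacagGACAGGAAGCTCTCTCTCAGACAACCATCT

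The longest V form led in every pool. It made up 52.1 to 58.4% of the TPM of transcripts joined to these sites (mean 55.7%), the middle form 29.2 to 33.5% (31.96%) and the shortest 11.3 to 14.4% (12.3%). The 3 shares did not overlap, and they varied little among pools, M3 having the least of the longest form and the most of both others.

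In Salmon's assignment, EDA was unevenly spread over the V forms. Within transcripts with the longest V, EDA-containing forms held 60.9 ± 9.16% of TPM (SD, n = 6 pools), within those with the middle V 18.4 ± 2.55%, and within those with the shortest V 11.5 ± 3.8%. The lowest value for the longest V, 51.6% in M1, lay above the highest for the middle V, 20.9% in F1. The 3 most abundant coding forms were EDA with longest V (28.0% of full-length coding TPM), middle V without EDA (26.1%) and longest V without EDA (21.9%). The last of these ranged from 27.4% in M1 to 11.6% in M3. These joint shares are Salmon's assignment of short read pairs to whole transcripts, and no error of that assignment is in the SD. EDA and the V region are separate exons with further exons between them, so their joint use was estimated rather than read directly.

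Tenascin-C, which interferes with the adhesion of cells to fibronectin, was the lowest member and, beside Thbs1, one of the 2 least even. It stood at 31.3, 15.6 and 12.1 TPM in the female pools and at 17.8, 12.1 and 12.4 TPM in the male pools. Pool F1 lay far above the next pool, M1, and the other 5 spanned 12.1 to 17.8 TPM with both sexes intermixed. The log2 difference of female over male was 0.50 ± 0.40 (SE; adjusted p = 0.880, edgeR), and without F1 it was 0.00. The gene lies at chr4:63878014-63965443 on the minus strand. Tenascin-C is also spliced among its type III repeats, but every full-length Tnc transcript in the annotation holds the repeats of the alternative region other than C, so the short form cannot be measured here. Repeat C, a coding exon of 273 bases (91 codons) at chr4:63902697-63902969, is the only repeat whose use these models separate, and it is shown with its 10-base flanks.
repeat C: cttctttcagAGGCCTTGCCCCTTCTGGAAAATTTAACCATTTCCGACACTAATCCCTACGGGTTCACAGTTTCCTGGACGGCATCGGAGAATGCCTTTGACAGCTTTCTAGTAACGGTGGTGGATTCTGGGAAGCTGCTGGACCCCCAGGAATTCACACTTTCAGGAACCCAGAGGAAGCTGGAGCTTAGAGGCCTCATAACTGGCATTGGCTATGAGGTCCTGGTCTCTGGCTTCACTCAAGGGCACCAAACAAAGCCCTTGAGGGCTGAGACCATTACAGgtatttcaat
Repeat C was included in 15.5, 12.5 and 17.2% of Tnc TPM in the female pools against in 16.8, 20.5 and 25.3% in males. M3 was the highest and F2 the lowest, and the sexes overlapped only through F3 and M1. The means were 15.1 ± 2.37 and 20.9 ± 4.22% (SD, n = 3 pools each; p = 0.2, exact permutation test). Most of the remainder was Tnc-204, at 53.4% of Tnc TPM in M3 and 79.1 to 87.5% elsewhere. In M3 alone, a further transcript without repeat C, Tnc-201, was estimated at 2.64 TPM, where the other 5 pools list it at 0.

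Tenascin-X, a large tenascin of collagen-rich tissue that is needed for normal collagen strength, was steady by comparison. It was at 55.9, 53.9 and 54.2 TPM in the female pools and at 68.1, 57.4 and 49.3 TPM in the male pools. The female values lay inside the male range, and the log2 difference was -0.03 ± 0.10 (SE; adjusted p = 0.978, edgeR). The 12533-base transcript Tnxb-203 carried 63.2% of its TPM (59.4 to 68.4%) and the 13300-base Tnxb-204 carried 28.7% (25.4 to 31.9%). Tnxb-204 holds an extra exon of 726 bases at chr17:34898835-34899560, whose inclusion was 27.1 to 34.9%. A block of 8 exons further on (2595 bases within chr17:34915511-34929998) was included at 90.5 to 93.9%. Neither differed by sex beyond the spread between pools (p = 0.7 and 0.9, exact permutation tests).

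Periostin, which binds integrins and cross-links collagen fibrils through lysyl oxidase recruitment, was at 188, 145 and 202 TPM in the female pools and at 194, 236 and 139 TPM in the male pools. F2 and M3 were the low pools and M2 the high one, so the spread lay within the sexes and the log2 difference was -0.11 ± 0.21 (SE; adjusted p = 0.952, edgeR). The gene lies at chr3:54268501-54298471 on the plus strand. Its C-terminal region is spliced at exon 17 (chr3:54287833-54287913, 81 bases or 27 codons) and exon 21 (chr3:54293092-54293175, 84 bases or 28 codons), shown here with their flanks as the exons that define the periostin forms.
exon 17: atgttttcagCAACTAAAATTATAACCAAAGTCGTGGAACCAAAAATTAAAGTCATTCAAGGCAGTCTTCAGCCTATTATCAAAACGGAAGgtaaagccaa
exon 21: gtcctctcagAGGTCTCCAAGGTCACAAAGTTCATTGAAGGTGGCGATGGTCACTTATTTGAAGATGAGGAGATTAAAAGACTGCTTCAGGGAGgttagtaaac

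Periostin without either exon was the leading form. Postn-204, which has neither, held 45.0 to 53.7% of full-length coding TPM (mean 49.5%), Postn-201 with exon 21 only 25.6%, Postn-203 with exon 17 only 22.0%, and Postn-202 with both 2.98%. Over all transcripts spanning each exon, exon 17 minus exon 21 was -4.79 ± 3.31 percentage points (SD, n = 6 pools; p = 0.03125, exact sign-flip permutation test), though only -1.01 points in F3. Over the 4 full-length coding forms alone it was -3.64 ± 3.35 points, negative in 5 of 6 pools and 0.14 in F3 (p = 0.0625, same exact test), so the call depends on which transcripts are counted. Over those forms it was -0.30, -2.14 and 0.14 points in the female pools and -5.31, -7.93 and -6.31 in the male pools. The gap was thus wider in every male pool than in any female pool, and this difference was not tested.

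Exon 17 was the single alternative site whose inclusion did not overlap between the sexes. It stood at 25.4, 27.2 and 25.2% in the female pools and at 23.7, 19.7 and 21.8% in the male pools. All 3 female pools lay above all 3 male pools, with means of 25.9 ± 1.07 and 21.7 ± 2.04% (SD, n = 3 pools each) and a difference of 4.19 points. The exact permutation test gave p = 0.1, the smallest that 3 pools against 3 allow, and 0.8 after adjustment over the 14 sites read. This was 1 of 14 sites, while 9.97% of the 53104 transcripts tested for use had shares that did not overlap between the sexes. In edgeR's test of transcript use, Postn-203 was not called (adjusted p = 1). Exon 21 was included at 27.9 ± 2.25% in females and 29.4 ± 0.84% in males (p = 0.4, exact permutation test).

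Versican was at 121, 104 and 83.6 TPM in the female pools and at 104, 102 and 106 TPM in the male pools. The female pools bracketed the male pools, which lay close together, and the log2 difference was 0.07 ± 0.10 (SE; adjusted p = 0.934, edgeR). The gene lies at chr13:89803431-89890814 on the minus strand. Its exons GAG-alpha (chr13:89851037-89853916, 2880 bases or 960 codons) and GAG-beta (chr13:89836404-89841620, 5217 bases or 1739 codons) encode the stretches that carry chondroitin sulfate chains. V0 has both, V1 only GAG-beta, V2 only GAG-alpha and V3 neither. The 3 junctions that tell these forms apart from the shared upstream exon are shown, with its last 30 bases in lower case and the first 30 bases of the exon joined to it in capitals.
to GAG-alpha: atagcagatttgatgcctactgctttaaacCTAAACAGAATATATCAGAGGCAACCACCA
to GAG-beta: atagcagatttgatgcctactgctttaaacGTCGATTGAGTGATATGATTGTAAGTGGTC
to neither: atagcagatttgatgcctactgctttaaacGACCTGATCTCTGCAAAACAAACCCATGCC

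V1 was the main versican of these nerves and V2 was the rarest form. V1 held 58.1 to 66.3% of full-length TPM (mean 63.3%), V0 27.1 to 31.2% (29.3%), V3 5.71 to 10.2% (6.83%) and V2 0.484 to 0.591% (0.534%). The 4 shares kept their order in 6 of 6 pools, and their ranges did not overlap. The quantified models were shorter than those of GENCODE M39, by 186 bases for V0, 1401 for V1, 1694 for V2 and 2195 for V3. The part of this in the shares was not tested. GAG-beta was included in 93.1% of TPM (V0 and V1 over V0, V1 and V3) and GAG-alpha in 32.1% (V0 and V2 over V0, V1 and V2), a gap of 61.1 ± 3.58 points present in 6 of 6 pools (p = 0.03125, exact sign-flip permutation test). Neither differed by sex beyond the spread (differences of 0.98 and -1.18 points, p = 0.8 and 0.6, exact permutation tests). Apart from these forms, the 861-base coding transcript Vcan-208, which covers the 3′ end of the gene, held 29.98% of Vcan TPM. In M3 it was at 0.658 times the full-length sum, against 0.310 to 0.448 in the other pools.

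**Figure D3:**
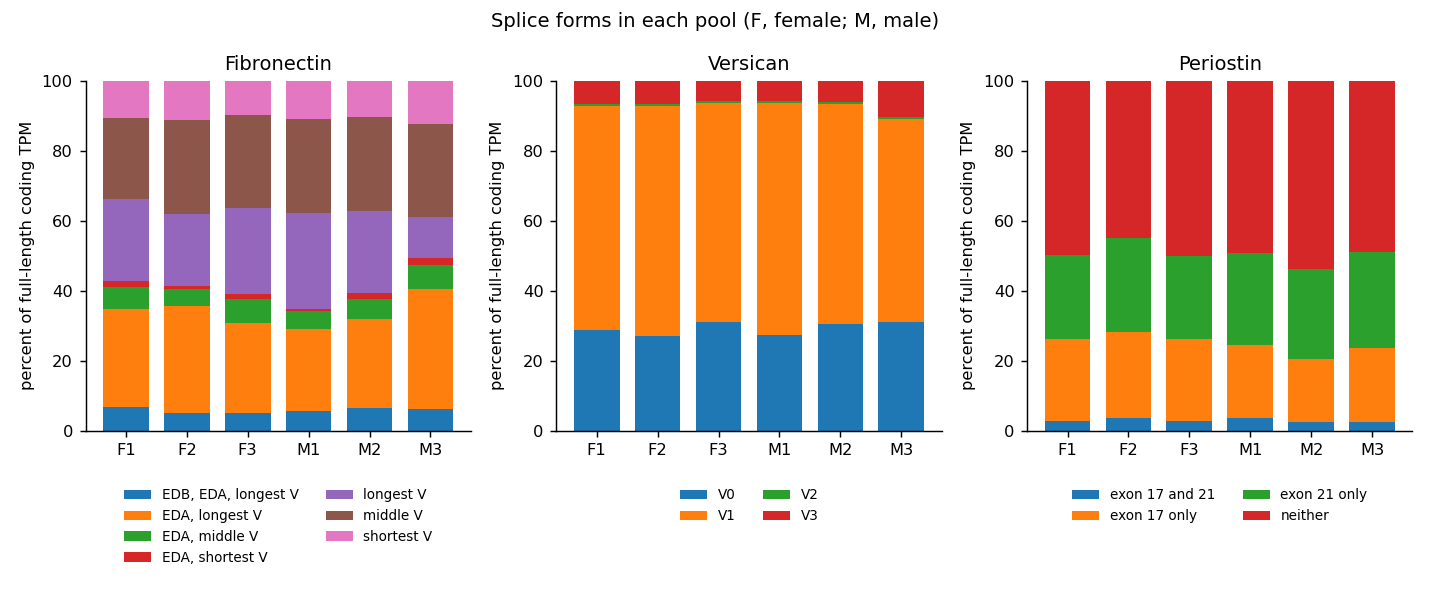
Stacked bars of the full-length splice forms of fibronectin, versican and periostin as a percent of their summed TPM in each pool (names with F, female; with M, male). V1 is the largest part of every versican bar (58.1 to 66.3%), the form with neither exon the largest of every periostin bar, and M3 has the least fibronectin with longest V without EDA (11.6%).

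Sparc encodes a collagen-binding glycoprotein that chaperones collagen into the matrix. It was at 3648, 3693 and 3798 TPM in the female pools and at 3980, 4097 and 3815 TPM in the male pools. Every male pool lay above every female pool, F3 and M3 being nearly level, and the log2 difference was -0.08 ± 0.08 (SE; adjusted p = 0.885, edgeR). The gene lies at chr11:55285317-55314067 on the minus strand. Its transcripts Sparc-201 and Sparc-202 held 60.6 and 38.6% of TPM, and they differ in a pair of acceptors 3 bases apart as well as in their ends. The stretch is shown with the 3 bases (1 codon) that the upstream acceptor adds in capitals.
Sparc acceptors, chr11:55298076-55298135: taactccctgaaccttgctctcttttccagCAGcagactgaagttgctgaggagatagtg
Transcripts with the upstream acceptor held 60.0 to 62.3% of TPM in the 6 pools. Sparc-209, a minor coding transcript at 0.234% of the gene, was the only member transcript with an unadjusted p under 0.05 for a difference in use (adjusted p = 1, edgeR), at 7.13, 5.84 and 5.79 TPM in the female pools and 23.2, 9.79 and 2.82 TPM in the male pools.

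Sparcl1, the related protein hevin, which also binds collagen and is made by vascular and glial cells, was at 117, 136 and 146 TPM in the female pools and at 142, 152 and 142 TPM in the male pools. F1 and F2 lay below every male pool, and F3 lay within the male range (log2 difference -0.13 ± 0.11, SE; adjusted p = 0.880, edgeR). Sparcl1-201 held 98.9% of its TPM. The gene lies at chr5:104226288-104262065 on the minus strand.

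Smoc2, a SPARC family member of basement membranes, had the smallest p of the 10 genes. It was at 591, 625 and 653 TPM in the female pools and at 596, 574 and 538 TPM in the male pools. On this scale F1 lay within the male range, and only the normalized counts, at a CPM of 997 to 1121 in females and of 936 to 975 in males, did not overlap. The log2 difference was 0.15 ± 0.07 (SE; adjusted p = 0.831, edgeR), and it stayed between 0.12 and 0.19 in every alternative fit. Smoc2-201 held 92.0% of TPM, and an acceptor that adds 33 bases (11 codons) was used in 4.62 to 5.70%. Smoc2 (chr17:14499735-14625074, plus strand) and Thbs2 (chr17:14885761-14914528, minus strand) are neighbours, 260686 bases apart with 3 annotated genes between them, 0 of them protein-coding. Their profiles differed, Smoc2 being highest in F3 and Thbs2 in F1, while both were lowest in M3.

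Among all the marker lists read, only the sums of macrophage and of adipocyte markers did not overlap between the sexes. Of the single genes tested, 11.2% had normalized counts that did not overlap. The summed level of 6 macrophage markers was 1058 to 1129 TPM in the female pools against 1237 to 1381 in males, and that of 5 adipocyte markers 538 to 1051 TPM in the female pools against 480 to 520 in males. All 6 macrophage and all 5 adipocyte markers passed the filter, and none was at 0. None of them was called by sex (smallest adjusted p = 0.416 and 0.366, edgeR). In females 5 macrophage markers had a lower fitted level and 1, Mrc1, a higher one, and all 5 adipocyte markers had a higher one. The 10 fibroblast markers summed to 6459 to 7081 TPM in the female pools against 6596 to 8076 TPM in the male pools. Their part in the Sparc and Smoc2 values was not tested.

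The thrombospondins, which bind CD36 and CD47 and release active TGF-beta in the case of thrombospondin-1, differed from each other in steadiness. Thbs1 was at 367, 226 and 166 TPM in the female pools and at 207, 133 and 273 TPM in the male pools, a range of 2.76-fold. F1 was the highest and M2 the lowest, each sex spanned most of the range, and the log2 difference was 0.29 ± 0.38 (SE; adjusted p = 0.929, edgeR). It became -0.06 without F1. Thbs1 is also stored in platelets. Of 7 platelet markers, 3 passed the filter and none was at 0 in every pool. The 7 summed to 1382, 1039 and 1022 TPM in the female pools against 758, 946 and 1086 TPM in the male pools. Most of this sum was the marker Pf4, at a mean of 886 TPM over all pools. F1 was highest here too, but the lowest pool was M1 and not M2. The part of platelet RNA in the Thbs1 values was not tested. Thbs2 was at 65.4, 56.2 and 62.6 TPM in the female pools and at 59.5, 63.7 and 37.2 TPM in the male pools. M3 alone lay apart, the other 5 pools spanning 56.2 to 65.4 TPM, and the log2 difference of 0.21 ± 0.18 (SE; adjusted p = 0.883, edgeR) became 0.02 without M3. Thbs1-201 and Thbs2-201 held 98.5 and 99.1% of the TPM of their genes. Thbs1 lies at chr2:117941974-117957616 on the plus strand.

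Across all transcripts of the 10 genes, use did not differ by sex at the threshold. Of the 65 transcripts, 56 passed the filter for the edgeR test of transcript use (diffSpliceDGE), and 0 were called at an adjusted p of 0.1, where 97 of all 53104 transcripts tested (0.183%) were. Only 1 of the 56 had an unadjusted p under 0.05, against 1.67% of all. The TPM shares of 8 of the 56 did not overlap between the sexes, against 9.97% of all. Of these 8, Postn-203, Vcan-208 and Thbs1-201 held at least 10% of their gene, and the other 5 were minor transcripts.

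**Figure D4:**
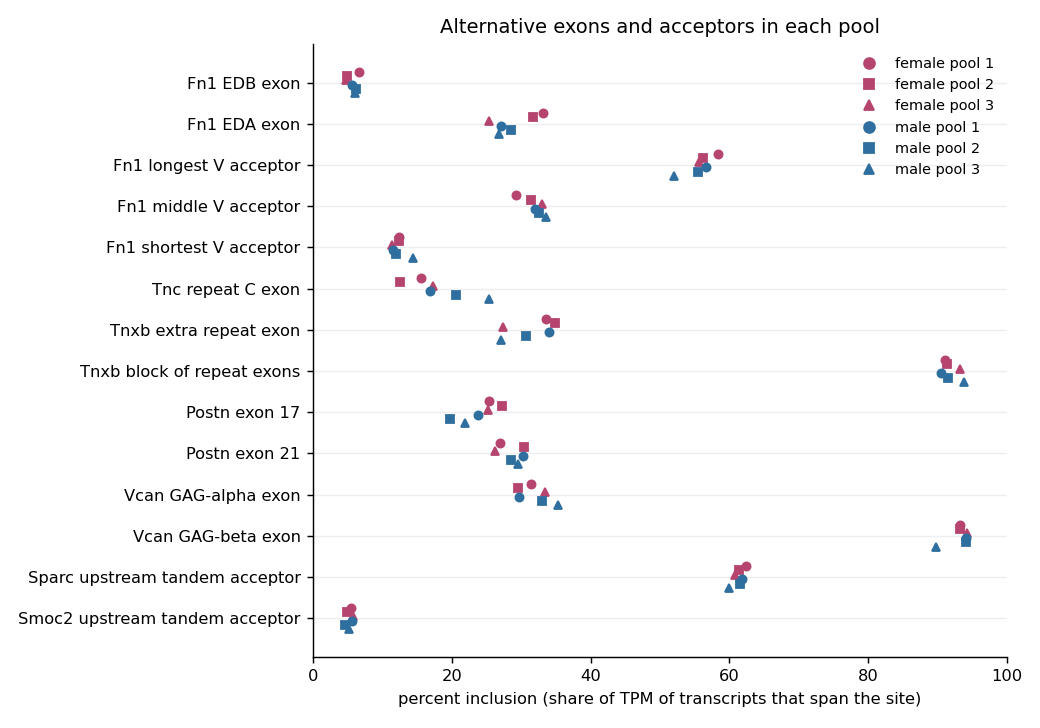
Percent inclusion of the 14 alternative exons and acceptors in each pool (red, female; blue, male; circle, square and triangle for replicates 1, 2 and 3), as the share of TPM of the transcripts that span each site. Female and male points overlap at every site except Postn exon 17, where the female pools lie at 25.2 to 27.2% and the male pools at 19.7 to 23.7%.

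Variation among pools was concentrated in Thbs1 and Tnc. On the scale of log2(TPM + 1), their SD over the 6 pools was 0.52 and 0.51, larger than in 98.6% of the genes tested in each case. Thbs2 (0.30) and Postn (0.29) followed, at percentiles 94.2 and 93.8, and Sparc had the smallest SD of the members, 0.06. The high and low pools of the members fell unevenly. F1 was the highest pool for Thbs1, Vcan, Thbs2 and Tnc, M2 for Sparc, Fn1, Postn and Sparcl1, and M3 was the lowest for Smoc2, Postn, Thbs2 and Tnxb. F2, the pool with muscle RNA, was neither the highest nor the lowest pool for any of them. In M3, genes whose leading transcript is at least 6000 bases long had a median deviation of -0.09 on that scale from their mean over pools, the lowest of the 6 pools, where those under 2000 bases had 0.00. The part of this in the values of M3 was not tested.

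The genes whose profile over the 6 pools came closest to the most variable members were named from the root mean square difference of centred log2(TPM + 1). For Thbs1 they were Cxcl1 (0.09), a neutrophil-attracting chemokine, Csrnp1 (0.09), an early-response nuclear protein, and Osm (0.10), the cytokine oncostatin M. Cxcl1 was at 109, 67.4 and 56.7 TPM in the female and at 59.6, 38.2 and 80.7 TPM in the male pools, and so shared the high pools F1 and M3 and the low pool M2 with Thbs1. For Tnc, Inhba (0.15), which encodes the inhibin beta A subunit of activin A, and Esm1 (0.16), an endothelial proteoglycan, are given. Inhba was at 7.93, 3.82 and 2.04 TPM in the female pools and at 3.41, 2.16 and 2.98 TPM in the male pools, with F1 again alone at the top. For Thbs2 they were the noncoding RNA gene Dnm3os (0.04), the macrophage lectin Mgl2 (0.06) and the leptin receptor Lepr (0.06), and each of them shared with Thbs2 the low value in M3. The members' own SDs on this scale are 0.52, 0.51 and 0.30, and these likenesses rest on 6 pools and on a search over all genes tested.

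**Figure D5:**
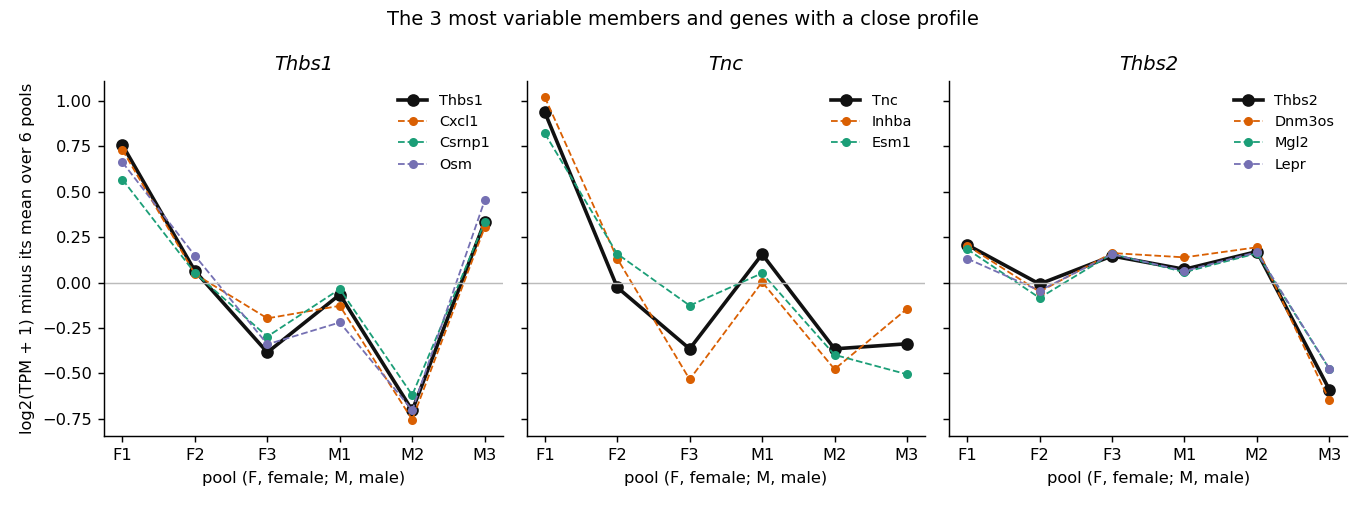
Deviation of log2(TPM + 1) from its mean over the 6 pools for Thbs1, Tnc and Thbs2 (black) and for the closest genes given in the text (dashed); lines join the values of a gene and imply no order of pools. F1 is the high pool of the Thbs1 and Tnc panels and M3 the low pool of the Thbs2 panel.

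The partners of these proteins were read from 6 lists of genes, of which 0 were called by sex in the edgeR fit (adjusted p under 0.1). Of 29 relatives of the members, 26 were tested, 12 with a higher and 14 with a lower fitted level in females, and 6 had an unadjusted p under 0.05. Their median log2 difference was -0.07, against 0.00 over all genes. The most abundant were Spp1 (osteopontin, a cytokine-like matrix phosphoprotein), at 2073 ± 108 TPM in the female pools against 2160 ± 527 TPM in the male pools, and Tgfbi (a collagen- and integrin-binding relative of periostin), at 419 ± 30.5 and 490 ± 40.7 TPM (SD, n = 3 pools each). The smallest p belonged to Fbln7 (fibulin-7), at 9.62 ± 1.19 and 7.31 ± 0.29 TPM (log2 difference 0.42 ± 0.10, SE; adjusted p = 0.454, edgeR), and to Ccn4 (WISP1), at 10.3 ± 0.94 and 11.9 ± 1.04 TPM (adjusted p = 0.599). DESeq2 called more genes than edgeR, 159 of all genes tested against 10. Of the list genes DESeq2 called 3 that edgeR did not, Fbln7 (adjusted p = 0.0458), the cartilage thrombospondin Comp (log2 difference -0.79, adjusted p = 0.0646) and Cd47 (adjusted p = 0.0918). Comp is named for that call alone.

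Of 12 genes for relatives and link proteins of versican and for hyaluronan synthesis and binding, 6 passed the filter. They lay 3 in each direction, and 0 had a p under 0.05. Cd44, the main hyaluronan receptor, was at 169 ± 44.0 TPM in the female pools against 150 ± 4.65 TPM in the male pools, and Lyve1, the lymphatic and macrophage hyaluronan receptor, at 39.6 ± 11.9 and 39.4 ± 13.6 TPM. Has2, which makes hyaluronan, was at 11.1 ± 2.30 and 12.4 ± 0.18 TPM (adjusted p = 0.831, edgeR), and the link protein Hapln2 was near the filter at 1.22 and 1.27 TPM. Cd44 was, like versican, highest in F1 (211 TPM) and lowest in F3 (123 TPM). Has2 shared these extremes (13.6 and 9.09 TPM), so they were not particular to Cd44, while Lyve1 was highest in F3 (53.3 TPM).

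Of 24 receptors, 23 were tested, 13 higher and 10 lower, with a median log2 difference of 0.01 and 2 unadjusted p under 0.05. Calr (calreticulin, which binds thrombospondin at the cell surface) was at 633 ± 39.6 and 666 ± 33.3 TPM, and Itgb1, the beta1 subunit shared by the fibronectin integrins, at 322 ± 14.2 and 317 ± 11.6 TPM. Cd47, a thrombospondin receptor, was at 152 ± 2.43 TPM in the female pools against 164 ± 8.91 TPM in the male pools (log2 difference -0.22 ± 0.06, SE; adjusted p = 0.599, edgeR). Ptprz1, a tenascin-binding phosphatase, was low, at 0.536 and 0.706 TPM (adjusted p = 0.600).

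Of 20 fibril assembly partners 19 were tested, 10 higher and 9 lower, with 0 p under 0.05. Serpinh1, the collagen chaperone HSP47, was at 522 ± 58.4 and 589 ± 70.3 TPM, and Pcolce, which enhances procollagen processing, at 270 ± 18.5 and 278 ± 28.8 TPM. Col5a1, which nucleates collagen fibrils, was at 92.1 ± 6.01 and 110 ± 10.4 TPM (adjusted p = 0.838, edgeR), and Ltbp4, a latent TGF-beta binding protein, at 57.5 ± 7.59 and 57.8 ± 5.99 TPM. A list of 13 genes held proteases of versican and matricellular proteins and, beside them, the proteoglycan gene Hspg2. Of these, 12 were tested, 6 in each direction, and 1 had a p under 0.05. Adamts15, a versican-cleaving protease, was at 9.21 ± 1.06 and 7.52 ± 0.57 TPM (log2 difference 0.33 ± 0.09, SE; adjusted p = 0.586, edgeR), and Adamts20 at 10.7 ± 1.36 and 12.8 ± 0.38 TPM (adjusted p = 0.831). Hspg2 (perlecan) was at 126 ± 5.08 and 141 ± 5.49 TPM and Plat (tissue plasminogen activator) at 72.2 ± 7.30 and 74.6 ± 8.41 TPM.

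All 13 genes of TGF-beta signalling, the pathway that thrombospondin-1 activates and that induces several members, were tested, 6 higher and 7 lower, with 0 p under 0.05 and a median log2 difference of -0.05. Tgfb1 was at 39.5 ± 2.50 TPM in the female pools against 47.5 ± 2.27 TPM in the male pools (log2 difference -0.20 ± 0.10, SE; adjusted p = 0.831, edgeR) and Tgfb2 at 2.26 ± 0.22 and 2.53 ± 0.39 TPM. The receptors Tgfbr2 and Tgfbr3 stood at 109 ± 9.45 and 106 ± 8.89 TPM and at 77.5 ± 0.30 and 80.3 ± 2.63 TPM. Over the 6 lists the counts at an unadjusted p under 0.05 were 6 of 26, 0 of 6, 2 of 23, 0 of 19, 1 of 12 and 0 of 13, where the share over all genes tested was 6.11%.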

How the data were processed

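Female and male sham nerves (3 pools each) were compared. Libraries were strand-specific and poly-A selected, reads were trimmed with Trimmomatic 0.39, and the authors quantified GENCODE transcripts with Salmon (1.5.2 in the submitters' processing notes). The deposited values are estimated counts of read pairs and TPM per transcript, the latter scaled by the authors' software to the same total in every pool. Here transcripts were summed per gene and counts rounded. Genes that reached a CPM of 0.5 in 3 or more pools (transcripts, 0.1) were fitted with edgeR 4.0.16 (TMM, robust quasi-likelihood, no covariate; diffSpliceDGE for transcript use) with Benjamini-Hochberg adjustment over all features at 0.1. The common biological coefficient of variation was 0.154. Exon structures and sequences came from GENCODE M39 on GRCm39, where 35 of the 65 member transcripts had the deposited length and the others were up to 2195 bases longer. Percent inclusion and ratios within pools were tested by exact permutation in Python 3.11.15. DESeq2 1.42.0 and other settings served as alternatives. Named were all members, transcripts with at least 10% of their gene, the 2 most abundant genes and the 2 of smallest p in each list, and the 3 nearest profiles of the 3 most variable members. Members and lists were chosen with earlier results of these data known. The steps were tested on simulated data. There the gene test and the transcript test both made a larger share of false calls than the 10% that the threshold allows. Of the calls, 14.5% were false in the gene test and 18.2% in the transcript test with spread set by level. The share was 70.2% in the transcript test when each transcript had its own spread. The uncertainty of Salmon's assignment is not in the transcript test. The p-values measure the spread between pools of separate mice. The profile of 1 further gene is not reported here. Axotomized nerves were not analysed here.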

Additional observations from a re-analysis of the deposited data

How the results depend on the processing

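No member was called by sex in any of the alternatives, and no member transcript in any transcript test. All genes called numbered 10, against 159 with DESeq2, 49 without a filter, 4 with a CPM of at least 1 in all 6 pools, 5 with the replicate number as a block and 4 to 9 with a pool left out (4 without F1, 5 without M1). DESeq2 called 3 list genes, the other fits 0. Replicate numbers did not pair the pools (correlations of their deviations -0.18, -0.16 and -0.15). Transcript calls numbered 97, against 38 at a CPM of at least 0.5, 305 without a filter, 79 with the replicate block and 143 to 217 with a pool left out. Vcan turned to -0.022 with length-scaled TPM. With a pool left out, the log2 differences that changed sign, none of them called, ranged from -0.14 to 0.13 for Fn1, -0.097 to 0.079 for Tnxb, -0.28 to 0.083 for Postn, -0.014 to 0.18 for Vcan and -0.062 to 0.59 for Thbs1.

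Non-overlapping splice sites numbered 1, and 1 to 4 with a pool left out (4 without F3). Female minus male inclusion changed sign for EDA with protein-coding transcripts only (-0.16 points) and, with a pool left out, for the shortest V (-1.18 to 0.31), the extra Tnxb exon (-0.44 to 3.62), the Tnxb block (-0.76 to 0.92), GAG-alpha (-2.69 to 0.15), GAG-beta (-0.47 to 1.73) and the Sparc acceptor (-0.20 to 0.72). With a pool left out, exon 17 minus exon 21 was -5.55 to -3.98 points and GAG-beta exceeded GAG-alpha by 60.4 to 62.4, each at p = 0.0625, the smallest an exact test of 5 pools allows. Exon 17 minus exon 21 was -3.64 points over the full-length coding forms, chosen after seeing the data (p = 0.0625, exact test of 6 pools). EDA minus EDB was 22.4 to 23.6 points with a pool left out, 29.2 with estimated counts and 35.3 with protein-coding transcripts only. The transcript models all but fix its sign. Over all 4 versican forms, a denominator chosen after seeing the data, the gap of GAG-beta over GAG-alpha was 62.8 points.

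The 9 neighbour pairs were taken from the order of levels in the same pools that were tested. Of these 9, 7 were past an adjusted p of 0.1, 4 with protein-coding transcripts only and 0 to 6 with a pool left out (0 without F2, F3, M1 or M2), where the exact test of 5 pools has little room. Log2 ratios turned for Smoc2 over Fn1 (-0.032), Postn over Sparcl1 (-0.65), Vcan over Thbs2 (-0.14) and Thbs2 over Tnxb (-0.14) per kilobase of the longest transcript, and for Thbs2 over Tnxb with protein-coding transcripts (-0.0055) and with a pool left out (-0.036 to 0.090). Without the retained-intron transcript Fn1-202, chosen after seeing the data, 7 pairs were past it. The median percentile of the members was 94.5, against 97.2 among all genes with a TPM above 0 and 95.3 with protein-coding transcripts only. No reads were subsampled, and the part of depth in these values was not tested.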
